A study of Mus musculus with 6 samples.

Results

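Type IV collagen is encoded in the mouse by 6 genes, *Col4a1* to *Col4a6*, and these 6 genes, taken by their symbols from a count table of 49548 genes, were followed here in native cardiac fibroblasts (CFs). Native CFs are the stromal, non-cardiomyocyte cells obtained directly from the heart by enzymatic dissociation and depletion of hematopoietic cells. They came from C57BL/6J mice at 5 weeks of age, 3 wild-type (WT) libraries and 3 libraries of CharmeKO mice, in which a PolyA signal was inserted into the locus of *Charme*, a long non-coding RNA of cardiac and skeletal muscle. The comparison addresses whether the stroma of hearts without *Charme* makes its extracellular matrix (ECM) transcripts at other levels. The methods name hearts of 3 WT and CharmeKO mice and RNA of 3 native samples. The sources used here do not say whether each library came from a single animal, so the p-values measure the spread between these libraries. The labels also list a growth medium, while the methods describe freshly isolated cells.

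Type IV collagen forms the sheet-like network of basement membranes, the thin layer of matrix under endothelium and around muscle, fat and Schwann cells. Its chains join as trimers inside the cell, and the trimers then link into a network outside it. The chains of *Col4a1* and *Col4a2* make the network found in almost every basement membrane. Those of *Col4a3*, *Col4a4* and *Col4a5* make the network of the kidney glomerulus and a few other sites, and *Col4a5* also joins with *Col4a6* in the basement membranes of some smooth muscle and epithelia. The genes lie in 3 pairs, the partners of which start next to each other and are read in opposite directions.

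In the GRCm38 assembly, *Col4a1* lies at chr8:11198423-11312826 on the minus strand and *Col4a2* at chr8:11312805-11449287 on the plus strand, so that their first exons overlap by 22 bases. *Col4a4* lies at chr1:82448423-82586849 on the minus strand and *Col4a3* at chr1:82586921-82722059 on the plus strand, with 71 bases between the start sites. *Col4a6* lies at chrX:141165403-141474076 on the minus strand and *Col4a5* at chrX:141475385-141689234 on the plus strand, with 1308 bases between them. The sequences around these start sites are shown because the partners of the first 2 pairs start within so short a stretch of each other, whereas those of the third have separate upstream stretches. They were taken from RefSeq on GRCm38.p6, whose promoter table matched 5 of the 6 members, all but *Col4a3*. Capitals mark the GC box (GGGCGG), the CCAAT box (CCAAT) and the TATA box (TATAAA), searched on both strands, and none of these motifs contains another.
Overlap of the first exons of *Col4a1* and *Col4a2*, chr8:11312805-11312826, plus strand: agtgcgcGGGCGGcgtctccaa
Between the start sites of *Col4a4* and *Col4a3*, chr1:82586850-82586920, plus strand: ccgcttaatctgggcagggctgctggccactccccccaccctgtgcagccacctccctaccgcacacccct
Upstream of *Col4a5*, chrX:141475169-141475369, plus strand: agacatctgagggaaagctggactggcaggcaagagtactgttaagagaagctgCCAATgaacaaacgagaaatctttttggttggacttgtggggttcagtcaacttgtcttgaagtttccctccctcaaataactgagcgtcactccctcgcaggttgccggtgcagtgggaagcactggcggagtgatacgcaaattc
Upstream of *Col4a6*, chrX:141474096-141474326, minus strand: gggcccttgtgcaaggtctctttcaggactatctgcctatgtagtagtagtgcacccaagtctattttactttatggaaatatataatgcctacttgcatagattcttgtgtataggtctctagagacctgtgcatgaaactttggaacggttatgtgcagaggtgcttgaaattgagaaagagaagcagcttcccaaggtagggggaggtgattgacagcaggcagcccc

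The stretch shared by *Col4a1* and *Col4a2* had a GC content of 72.7% and held 1 GC box, and that between *Col4a4* and *Col4a3* had 69.0% and held none of the 3 motifs. The stretches upstream of *Col4a5* and *Col4a6* had 49.8% and 45.5%, and the former held 1 CCAAT box. Over the whole promoter rows of 300 bases, 250 before and 50 after the start, the GC box was found in *Col4a1*, *Col4a2*, *Col4a5* and *Col4a6*, against 35.7% of 32851 promoters, and the CCAAT box in *Col4a1*, *Col4a2* and *Col4a5*, against 37.4%. The rows of *Col4a1* and *Col4a2* share part of their sequence. The TATA box was in none of the 5 rows, against 13.6% of all promoters. These matches describe the sequence and not a binding site.

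Counts on genes totalled between 9595701 and 42101393 per library in WT and between 23550718 and 31048606 in CharmeKO, with WT replicate 3 the shallowest. The WT libraries had 26, 15 and 4 counts of *Charme*, and the CharmeKO libraries had 7, 0 and 0, a 0 leaving room for up to 3 counts. *Xist* was high in WT replicate 1 and in CharmeKO replicates 1 and 2, and Y-linked genes in the other 3 libraries, while CharmeKO replicate 1, with 13553 *Xist* counts, also had 136 Y-linked counts. The 17 fibroblast markers were all detected, with a summed level of 46426 to 48393 CPM (counts scaled to the library size by the TMM method of edgeR) in WT and 38330 to 47600 CPM in CharmeKO. *Gsn* (21026 CPM) and *Col3a1* (6176 CPM), whose products sever actin filaments and form fibrils, were the highest of them over the 6 libraries. The 16 endothelial markers were also all detected, at 13402 to 18822 CPM in WT and 14358 to 19074 CPM in CharmeKO, and hemoglobin and other erythroid markers at 26796 to 39250 and 24423 to 31759 CPM. The name native CFs is that of the study, and the libraries also hold transcripts of other cell types.

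All 6 members passed the filter of at least 10 counts in at least 2 libraries that left 15789 genes to test, and none had fewer than 322 counts in a library. *Col4a1* was the 7th most abundant tested transcript by mean CPM and *Col4a2* the 14th, whereas *Col4a5* ranked 968th, *Col4a4* 1192nd, *Col4a3* 2639th and *Col4a6* 5665th. Per kilobase of exon, the scale on which genes can be compared, the WT levels were 1101 ± 160 CPM for *Col4a1* and 835 ± 141 CPM for *Col4a2* (SD, n = 3). They were 31.7 ± 3.41 CPM per kilobase for *Col4a5*, 19.8 ± 5.32 for *Col4a4*, 9.80 ± 2.45 for *Col4a3* and 4.29 ± 0.176 for *Col4a6* (SD, n = 3). This order held within each of the 6 libraries. Between *Col4a2*, at 395 CPM per kilobase or more in every library, and *Col4a5*, at 35.6 or less, the ranges did not overlap. The ranges of the other neighbours in the order overlapped across libraries. *Col4a1* and *Col4a2* together made up 96.7 ± 0.0701% of the summed level per kilobase in WT and 96.9 ± 0.561% in CharmeKO (SD, n = 3). *Col4a3* and *Col4a4* made up 1.46 ± 0.163% and 1.13 ± 0.237%, and *Col4a5* and *Col4a6* 1.81 ± 0.104% and 1.94 ± 0.324%. The transcripts measured in these cells were thus, by level, almost wholly those of the ubiquitous network.

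The transcripts of the minor pair *Col4a3* and *Col4a4* passed the test as lower in CharmeKO native CFs. The other 4 genes also had lower mean values, which did not pass. In the 6 fits without 1 library, *Col4a3* passed in 1 and *Col4a4* in 2. A call in 1 pair and not in the others does not show that the pairs differ. The tests between pairs, given below, could not pass the threshold. All 6 log2 fold changes were negative, between −1.10 and −0.52 with a median of −0.60, where the median over all tested genes was 0.0096 and 48.8% of them were below 0. With edgeR's quasi-likelihood test and Benjamini-Hochberg adjustment over all genes, 2 of the 6 passed the threshold of 0.05 as lower, against 0.412% of the tested genes. DESeq2 called 3 of the 6, with *Col4a2* the third, against 1.55%. All 6 had an unadjusted p under 0.05 with a negative sign, which held for 6.87% of all tested genes. In such bulk libraries, fewer cells that express a gene and less RNA per cell cannot be told apart.

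**Figure D1:**
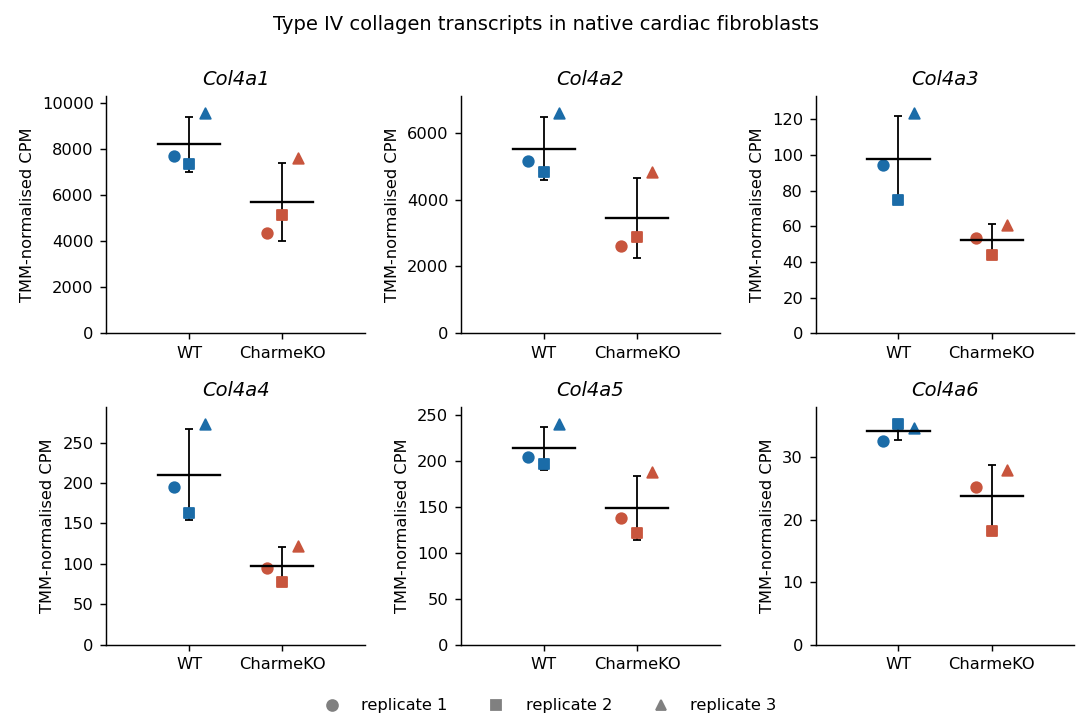
TMM-normalised CPM of each type IV collagen gene by library, on a linear axis from 0, in 3 WT (blue) and 3 CharmeKO (red) libraries, with the marker shape for the replicate number and bars for the mean and SD. The CharmeKO libraries of *Col4a3*, *Col4a4*, *Col4a5* and *Col4a6* all lie below the WT libraries, as held for 8.59% of all tested genes. For *Col4a1* and *Col4a2*, CharmeKO replicate 3 lies just above WT replicate 2.

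*Col4a1*, which encodes the chain present in most type IV trimers, had 7714, 7360.5 and 9576 CPM in the WT libraries, with replicates 1, 2 and 3 in this order here and below. The CharmeKO libraries had 4373, 5127 and 7613 CPM. The first 2 CharmeKO libraries were below every WT library and the third lay within the WT range. Its log2 fold change was −0.53 ± 0.21 (SE), with a 95% confidence interval from −0.98 to −0.075, and did not pass the test (edgeR adjusted p = 0.316). *Col4a2*, its partner in the same trimers, had 5169.6, 4822 and 6587 CPM in the WT libraries and 2616, 2895 and 4833 CPM in the CharmeKO libraries. CharmeKO replicate 3 again exceeded WT replicate 2, here narrowly. The log2 fold change of *Col4a2* was −0.68 ± 0.23 (SE), with an interval from −1.18 to −0.19 and an adjusted p of 0.249 in edgeR and of 0.0341 in DESeq2.

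*Col4a3* and *Col4a4* encode chains whose loss underlies the glomerular disease Alport syndrome. For *Col4a3*, the WT libraries were at 94.6, 75.0 and 123 CPM and the CharmeKO libraries at 53.4, 43.8 and 60.7 CPM. Every CharmeKO library was below every WT library, as held for 8.59% of all tested genes. *Col4a3* fell by 45.9% on the scale of the fitted fold change, with a log2 fold change of −0.89 ± 0.18 (SE), an interval from −1.28 to −0.50 and an adjusted p of 0.0459 in edgeR. Its partner *Col4a4* had WT values of 195, 163 and 273 CPM and CharmeKO values of 94.7, 77.0 and 122 CPM. It showed the largest change of the 6 genes in the main fit, also without overlap between the groups. *Col4a4* fell by 53.3%, with a log2 fold change of −1.10 ± 0.20 (SE), an interval from −1.55 to −0.65 and an edgeR adjusted p of 0.0305. WT replicate 3, the library of lowest depth, was the highest and CharmeKO replicate 2 the lowest for both genes, with 1148 and 1070 counts on *Col4a3*. Neither call held in every fit without 1 library. Without WT replicate 1, WT replicate 3, CharmeKO replicate 1 or CharmeKO replicate 2, the edgeR adjusted p of *Col4a4* was 0.0808, 0.0988, 0.206 and 0.195 in this order. For *Col4a3* it was 0.129, 0.160, 0.225 and 0.268 in the same fits, and 0.0557 without CharmeKO replicate 3. After removal of GC and length trends, a setting chosen after the data were seen, it was 0.0416 for *Col4a4* and 0.0559 for *Col4a3*.

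*Col4a5* and *Col4a6*, the X-linked pair, encode the chain shared by both minor networks and the partner it has outside the kidney filter. The WT libraries had 204, 197 and 239 CPM of *Col4a5*, and the CharmeKO libraries 137, 121 and 188 CPM. Its log2 fold change was −0.52 ± 0.16 (SE), with an interval from −0.88 to −0.16 (edgeR adjusted p = 0.227). *Col4a6*, the least abundant member, had 32.6, 35.3 and 34.6 CPM in the WT and 25.2, 18.2 and 27.9 CPM in the CharmeKO libraries. The WT libraries of *Col4a6* were close together. For both genes every CharmeKO library was below every WT library, as held for 8.59% of all tested genes. The log2 fold change of *Col4a6* was −0.52 ± 0.16 (SE), with an interval from −0.86 to −0.17 and an adjusted p of 0.202 in edgeR. Leaving out CharmeKO replicate 3 brought *Col4a2* and *Col4a5* past the threshold, with edgeR adjusted p-values of 0.0322 and 0.0469.

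**Figure D2:**
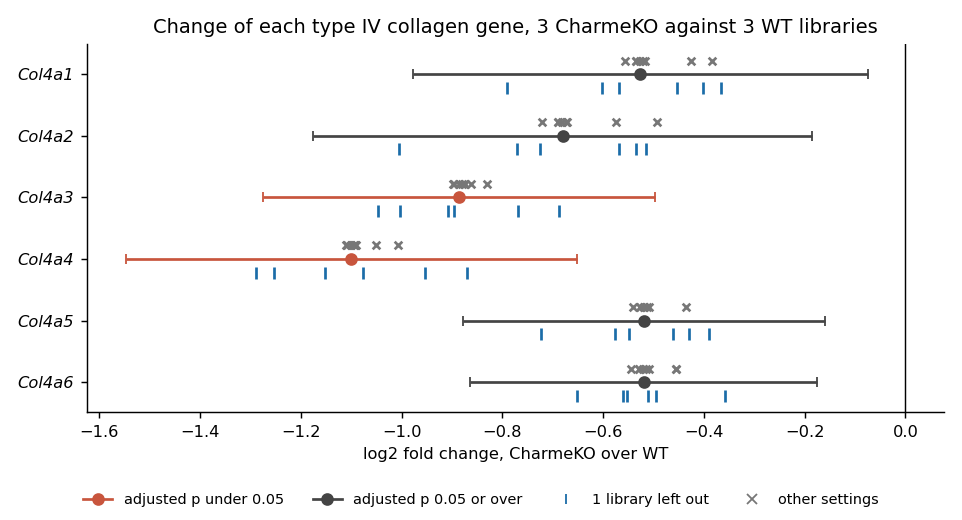
Log2 fold change of CharmeKO over WT for each type IV collagen gene, with its 95% confidence interval, in red where the edgeR adjusted p was under 0.05. Ticks under each point are the 6 fits without 1 library and crosses above it the other settings, and all of these values lie below 0.

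Libraries high in *Xist* and libraries high in Y-linked genes were spread unevenly over the genotypes. Among the libraries high in *Xist*, 1 WT and 2 CharmeKO, the difference of mean log2 CPM was −0.70 for *Col4a1*, −0.91 for *Col4a2*, −0.97 for *Col4a3*, −1.19 for *Col4a4*, −0.66 for *Col4a5* and −0.60 for *Col4a6*. Among the other 3, 2 WT and 1 CharmeKO, it was −0.14, −0.22, −0.66, −0.79, −0.21 and −0.32 in the same order. The sign was the same in both sets for all 6 genes, and no test was run within sets of 3 libraries. With a term for this split in the edgeR fit, the adjusted p was 0.0462 for *Col4a4* and 0.0943 for *Col4a3*.

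Counts within a library were then set against each other, since a ratio of 2 genes in the same library is free of its depth. The log2 ratio of counts of *Col4a1* to *Col4a2* was 0.58, 0.61 and 0.54 in the WT and 0.74, 0.82 and 0.66 in the CharmeKO libraries. The groups did not overlap, and the mean ratio went from 0.58 ± 0.035 to 0.74 ± 0.085 (SD, n = 3), a difference of 0.16 in favour of *Col4a1*. The ratio of *Col4a3* to *Col4a4* was −1.04, −1.12 and −1.14 in WT and −0.83, −0.82 and −1.004 in CharmeKO, again without overlap. Its mean difference was 0.22 in favour of *Col4a3*. *Col4a1* and *Col4a3* were thus the partners with the smaller fold change, and both differences gave the smallest p that 3 libraries against 3 allow (two-sided exact permutation test, p = 0.1, adjusted p = 0.3 over 12 ratios). The ratio of *Col4a5* to *Col4a6* was 2.64, 2.48 and 2.79 in WT and 2.44, 2.73 and 2.75 in CharmeKO, and its mean differed by 0.0047 (exact permutation test, p = 1). Among 440 other head-to-head pairs of protein-coding genes, with start sites at most 2000 bases apart or overlapping by at most 1000 and both genes over 10 CPM, the groups did not overlap in the ratio in 21.6%.

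Between pairs, each taken as the mean log2 count of its genes, the difference from WT to CharmeKO was −0.35 for *Col4a3*/*Col4a4* over *Col4a1*/*Col4a2* (exact permutation test, p = 0.2), and −0.52 without CharmeKO replicate 1. The WT values were −5.54, −5.75 and −5.44 and the CharmeKO values −5.57, −6.05 and −6.14, so that CharmeKO replicate 1 lay inside the WT range. For *Col4a3*/*Col4a4* over *Col4a5*/*Col4a6* the values were 0.73, 0.41 and 1.01 in WT and 0.27, 0.31 and 0.25 in CharmeKO. These groups did not overlap, as held for 21.6% of the ratios inside other head-to-head pairs. No such share was taken for ratios between pairs. The mean difference was −0.44 (exact permutation test, p = 0.1, adjusted p = 0.3). *Col4a5*/*Col4a6* over *Col4a1*/*Col4a2* differed by 0.097, with overlapping groups (exact permutation test, p = 0.8). With 3 libraries against 3, an exact permutation test between pairs could not go below p = 0.1 in any of these comparisons, and so none of them could pass the threshold of 0.05. That smallest value was reached for *Col4a3*/*Col4a4* over *Col4a5*/*Col4a6* and not over *Col4a1*/*Col4a2*.

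**Figure D3:**
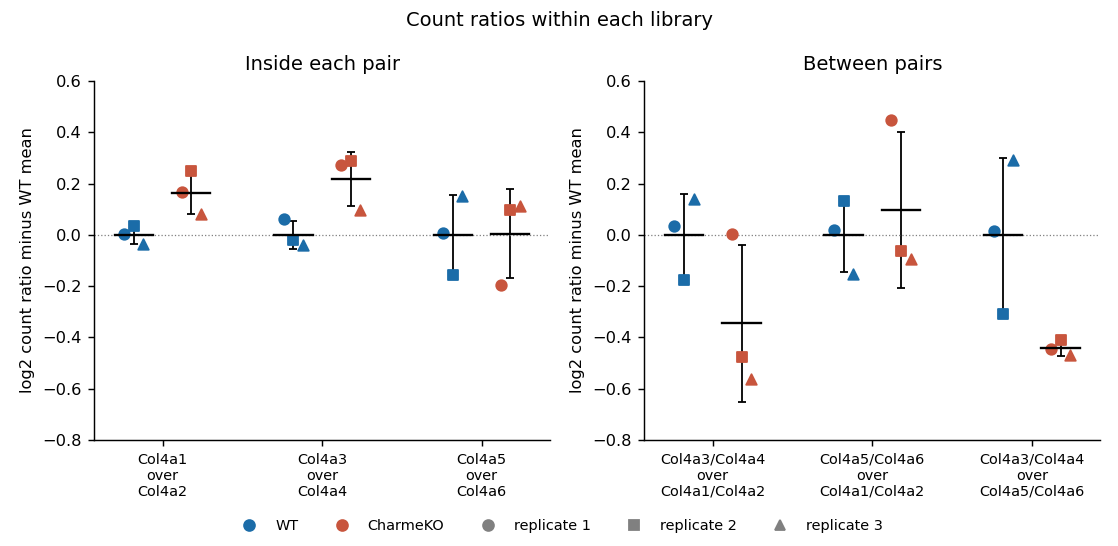
Log2 ratio of counts within each library, minus the WT mean of that ratio, inside each head-to-head pair (left) and between pairs (right), with bars for the mean and SD of 3 libraries. CharmeKO lies above WT without overlap for *Col4a1* over *Col4a2* and for *Col4a3* over *Col4a4*, and below it for *Col4a3*/*Col4a4* over *Col4a5*/*Col4a6*.

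The pairs were also set beside the other 440 head-to-head pairs. The SD of the log2 ratio over the 6 libraries was 0.11 for *Col4a1* and *Col4a2*, 0.14 for *Col4a3* and *Col4a4* and 0.15 for *Col4a5* and *Col4a6*, where the other pairs had a median of 0.22. Smaller values were found in 6.14%, 14.5% and 14.8% of the other pairs. These pairs differ in abundance and so in counting error. The partners' log2 fold changes differed by 0.15, 0.21 and 0.00084 in the same order, which was smaller in 41.8%, 59.3% and 0.455% of the other pairs. Both genes had a negative log2 fold change in 20.2% of the other pairs. Both were at or below −0.50, a limit set after the values of the members were seen and met by 9.77% of all tested genes, in 0 of the 440 and in the 3 type IV pairs. The limit lies just above the members' own values, so their meeting it follows from its choice and is no separate evidence.

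Likeness was measured as the root-mean-square (RMS) difference of log2 CPM after each gene was centred on its mean of the 6 libraries, without a test, since all genes share these libraries and their depths. Among the 15788 other tested genes, *Col4a1* was the closest to *Col4a2* and *Col4a2* the 5th closest to *Col4a1*. *Col4a3* ranked 3rd for *Col4a4* and *Col4a4* 6th for *Col4a3*. *Col4a6* stood in rank 123 for *Col4a5* and *Col4a5* in rank 99 for *Col4a6*. The RMS difference itself was 0.098 between *Col4a1* and *Col4a2*, 0.129 between *Col4a3* and *Col4a4* and 0.134 between *Col4a5* and *Col4a6*, so that the latter pairs were about as alike, while more of the other genes lay close to *Col4a5* and *Col4a6*. *Col4a5* was about as far from *Col4a1* (RMS difference 0.131) as from *Col4a6*.

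Of the genes over 10 CPM outside the family, the 5 most like the profile of *Col4a1* and *Col4a2* were *Hspg2*, *Prr5*, *Prr7*, *Adgrd1* and *Sez6l2*. *Hspg2* encodes perlecan, the large heparan sulfate proteoglycan of basement membranes, and had 13165, 14496 and 17506 CPM in the WT and 7795, 8931 and 12863 CPM in the CharmeKO libraries (RMS difference 0.077). The library order of the CharmeKO values was that of *Col4a1* and *Col4a2*, a likeness that the choice of *Hspg2* favours. Among the WT libraries *Hspg2* was lowest in replicate 1, and *Col4a1* and *Col4a2* in replicate 2. The log2 ratio of *Col4a1*/*Col4a2* to *Hspg2* differed by −0.0065 between the groups, that of *Col4a3*/*Col4a4* by −0.35 and that of *Col4a5*/*Col4a6* by 0.091, given without a test, since *Hspg2* was picked for its likeness to *Col4a1* and *Col4a2* over the same libraries. In a comparison added after the data were seen, the log2 ratio to the fibrillar genes *Col1a1*, *Col1a2* and *Col3a1* differed by 0.020 for *Col4a1*/*Col4a2* (exact permutation test, p = 0.7). It differed by −0.33 for *Col4a3*/*Col4a4* (exact permutation test, p = 0.1, adjusted p = 0.3) and by 0.12 for *Col4a5*/*Col4a6* (exact permutation test, p = 0.6).

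Most like *Col4a3* and *Col4a4* were *Mfap4*, *Hk2*, *Hr*, *Col15a1* and *Sorcs2*. *Mfap4*, an ECM glycoprotein of elastic fibers, had WT values of 425, 321 and 533 CPM and CharmeKO values of 231, 188 and 252 CPM (RMS difference 0.071). WT replicate 3 was the highest and WT replicate 2 the lowest WT library of *Mfap4*, as for *Col4a3* and *Col4a4*. The log2 fold changes were −0.93 for *Mfap4*, −0.94 for *Hk2*, which encodes a hexokinase, −1.03 for *Sorcs2*, which encodes a sortilin-family receptor, −0.94 for *Hr* and −0.80 for *Col15a1*, a multiplexin collagen at the outer face of basement membranes. Since likeness over these 6 libraries includes the shift between the groups, lower values in CharmeKO follow from the choice of these genes and are no separate evidence. The same holds for a like order of the libraries. The 5 genes most like *Col4a5* and *Col4a6* were *Cspg4*, *Dnm1*, *Ptk7*, *B3gnt8* and *Gli2*, at RMS differences between 0.038 and 0.054. *Cspg4* encodes NG2, a proteoglycan of pericytes, with a mean of 129 ± 5.65 CPM in WT and 86.9 ± 17.5 CPM in CharmeKO (SD, n = 3, log2 fold change −0.57). *Hspg2* and *Col15a1* belong to the list of other basement membrane genes, and *Cspg4* to the mural markers.

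**Figure D4:**
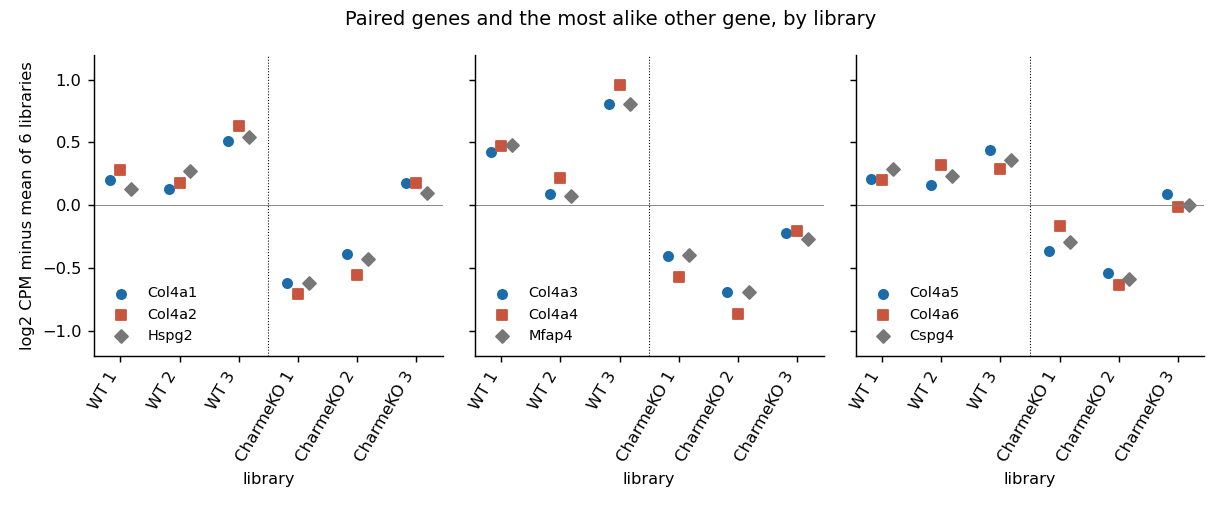
Log2 CPM minus its mean over the 6 libraries for the genes of each head-to-head pair and for the most alike gene outside the family, by library, with WT to the left and CharmeKO to the right of the dotted line. Libraries have no order within a group, and WT replicate 3 and CharmeKO replicate 2 stand at the ends of the *Col4a3* and *Col4a4* values.

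The genes next to the pairs were read for comparison. *Irs2*, which encodes an adaptor of the insulin receptor and flanks *Col4a1*, had means of 285 ± 38.4 CPM in the WT and 197 ± 31.1 CPM in the CharmeKO libraries (SD, n = 3), with a log2 fold change of −0.53 (adjusted p = 0.179 in edgeR and 0.0258 in DESeq2). *Rab20*, at the far side of the same pair, had a log2 fold change of −0.10. *Rhbdd1* and *Mff*, on either side of the *Col4a3* and *Col4a4* pair, were at 0.23 and 0.22, and *Atg4a*, beside *Col4a6*, at 0.21, with edgeR adjusted p-values between 0.466 and 0.893 for these 4 genes. The antisense RNA *C430014B12Rik* inside the *Col4a3* and *Col4a4* locus had at most 27 counts in a library, and *Gm15419*, antisense in the *Col4a1* and *Col4a2* locus, at most 31. The counting used the strand, so these reads are apart from those of the collagen genes.

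Around the collagen itself, the genes of the basement membrane had lower medians in CharmeKO than those of collagen biosynthesis, and few genes passed the test. Laminins, the cross-shaped heterotrimers that form the other basement membrane network, had 9 of 10 tested genes with a negative log2 fold change and a median of −0.32. *Lamc3* was the laminin that passed in edgeR, going from 10.9 ± 4.00 to 1.66 ± 0.286 CPM (SD, n = 3), with a log2 fold change of −2.70 ± 0.32 (SE, edgeR adjusted p = 0.00148). At an unadjusted p under 0.05, 3 laminins were lower and 1 was higher, where 6.87% of all tested genes were lower. DESeq2 called 2 laminins as lower. The 3 most abundant laminins were *Lamc1* (−0.53), *Lamb1* (−0.25) and *Lamb2* (−0.30), and these log2 fold changes did not pass in edgeR, with *Lamc1* passing in DESeq2 (adjusted p = 0.0206). Of 19 other basement membrane genes, 17 were negative, with a median of −0.32, and 0 passed in edgeR, while 6 were lower and 1 higher at an unadjusted p under 0.05 and DESeq2 called 4 as lower. The most abundant of them were *Hspg2* (log2 fold change −0.61, adjusted p = 0.242 in edgeR and 0.0293 in DESeq2), *Sparc* (−0.32), which encodes a collagen-binding glycoprotein, and *Col15a1* (−0.80, adjusted p = 0.159 in edgeR and 0.00437 in DESeq2). Of 7 genes of network crosslinking, 6 were negative, with a median of −0.35 and 0 calls in edgeR, 3 lower at an unadjusted p under 0.05 and 1 in DESeq2. *Pxdn*, the peroxidase that forms the sulfilimine bond between type IV trimers, was at −0.51 ± 0.16 (SE, edgeR adjusted p = 0.224), *Loxl1* at −0.57 and *Tgm2* at −0.35. Over all tested genes, 0.83% passed in either direction.

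The machinery that builds and exports the chains had medians nearer to 0. Of 20 genes of chain modification and folding, 13 were negative, with a median of −0.097, and *Serpinh1*, the collagen chaperone HSP47, *Hspa5*, an ER chaperone, and *P4hb*, a subunit of prolyl hydroxylase, were at −0.027, 0.14 and 0.024. Of 13 secretion genes, 8 were negative, with a median of −0.0096, and *Sec31a*, *Sar1a* and *Sec24d*, which encode parts of the COPII coat, were at −0.15, 0.090 and −0.36. Receptors for collagen and basement membrane had 12 of 16 genes negative and a median of −0.18, with *Itgb1* at 0.073, *Dag1* at −0.18 and *Ddr2* at −0.18. Turnover genes had 10 of 16 negative and a median of −0.056, with *Timp3* at −0.17, *Mmp2*, a gelatinase, at −0.66 and *Timp2* at −0.42. Among 22 transcriptional regulators 13 were negative, with a median of −0.096, and *Egr1*, *Klf4* and *Klf2* were at −0.052, 0.0070 and 0.016. In these 5 lists 0 genes passed in edgeR. At an unadjusted p under 0.05, 3, 1, 1, 3 and 3 of them were lower in the order given, none was higher, and DESeq2 called 3 as lower, all of them in turnover. Over all tested genes, 6.87% were lower at an unadjusted p under 0.05 and 1.55% were called lower by DESeq2.

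**Figure D5:**
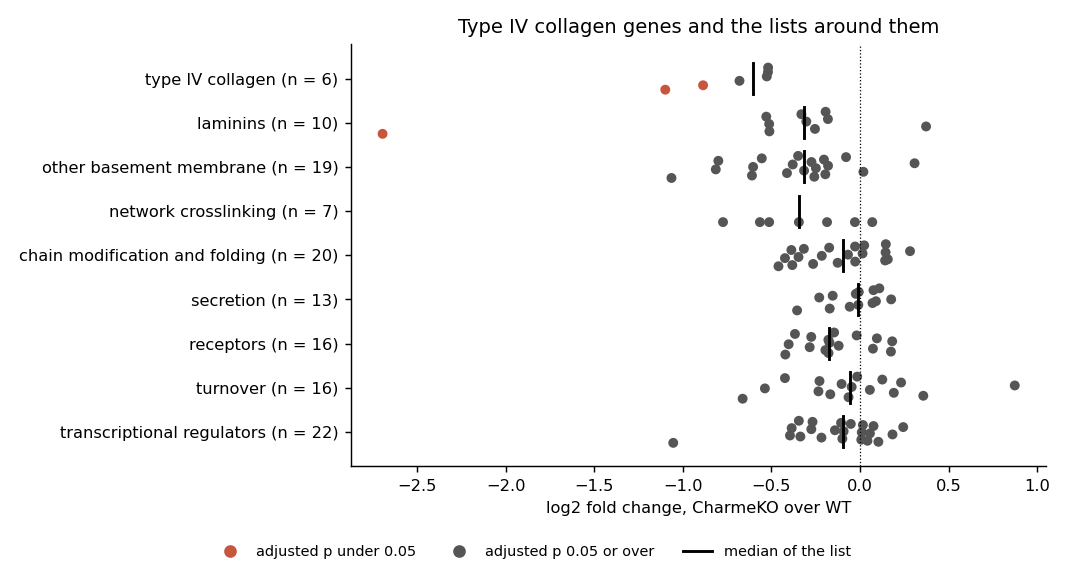
Log2 fold change of CharmeKO over WT for every tested gene of the type IV collagen list and of 8 lists around it, with the median of each list as a bar and genes with an edgeR adjusted p under 0.05 in red. The type IV collagen genes all lie at or below −0.52, and the lists of folding and secretion are centred near 0.

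Markers of the cell types that the suspension could hold were read beside these values, and their part in the results was not tested. Endothelial cells and pericytes are known makers of type IV collagen. Of 16 endothelial markers 6 were negative, with a median log2 fold change of 0.12, 0 calls in edgeR and DESeq2 and 3 higher at an unadjusted p under 0.05, and *Aqp1* and *Fabp4*, the most abundant, were at 0.17 and 0.43. In the sum of the 12 mural markers, WT was at 2631 to 2990 CPM and CharmeKO at 2588 to 3045 CPM, with *Rgs5* at 0.092 and *Notch3* at −0.36. Of these 12, 6 were negative and 0 passed in edgeR, with 2 lower at an unadjusted p under 0.05 and *Cspg4* called lower by DESeq2 (adjusted p = 0.0158). Of the 17 fibroblast markers, 11 were negative, with a median of −0.057 and 0 calls in edgeR, 4 lower and 1 higher at an unadjusted p under 0.05 and 2 called lower by DESeq2. The 9 Schwann markers summed to 59.6 to 61.4 CPM in WT and 58.2 to 64.2 CPM in CharmeKO, with *Cnp* and *Cdh19* highest, and the 12 leukocyte markers to 38.5 to 75.0 and 49.9 to 68.9 CPM, with *Cd79a* highest. *Hbb-bs* and *Hba-a1* led the erythroid markers at 15268 and 8156 CPM over all libraries. *Slc4a1* was the erythroid marker that passed in edgeR, with a log2 fold change of −1.82 (edgeR adjusted p = 0.00555). Of the 7 erythroid markers 6 were negative, with a median of −0.19 and 2 lower at an unadjusted p under 0.05. In none of the 9 lists was a marker at 0 in all libraries.

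In 3 lists the summed levels of the genotypes did not overlap, and in 2 of these lists they overlapped once 1 gene was left out. The 12 cardiomyocyte markers summed to 406 to 518 CPM in WT and 594 to 919 CPM in CharmeKO, without overlap, and *Mb*, *Myh6* and *Tnni3* passed the test as higher in CharmeKO, with *Mb* (153 CPM) and *Myh6* (82.7 CPM) the most abundant. Without these 3 genes the other 9 summed to 223 to 309 CPM in WT and 320 to 481 CPM in CharmeKO, still without overlap. Of the 12 cardiomyocyte markers 0 were negative, with a median log2 fold change of 0.67. At an unadjusted p under 0.05, 10 of them were higher, as were 932 of the 15789 tested genes. DESeq2 called 6 of the 12 as higher, against 154 genes over the whole table. The 6 endocardial markers, led by *Npr3* and *Plvap*, summed to 167 to 186 CPM in WT and 140 to 153 CPM in CharmeKO, and *Plvap* fell, with a log2 fold change of −0.92 (edgeR adjusted p = 0.00791), whereas *Npr3* was at −0.066. Without *Plvap* the sums overlapped, at 106.4 to 130 CPM in WT and 102.5 to 124 CPM in CharmeKO. Of the 6 endocardial markers 5 were negative, with a median of −0.25, and 1 was lower at an unadjusted p under 0.05. The 10 epicardial and mesothelial markers, led by *Aldh1a2* and *Wt1*, summed to 122 to 151 CPM in WT and 104.6 to 118 CPM in CharmeKO, and *Wt1* fell, with a log2 fold change of −0.66 (edgeR adjusted p = 0.0189), whereas *Aldh1a2* was at 0.060. Without *Wt1* the sums overlapped, at 68.7 to 98.8 CPM in WT and 73.4 to 85.2 CPM in CharmeKO. Yet 7 of the 9 tested epicardial and mesothelial markers were negative, with a median of −0.66, and *Aldh1a2* had the highest log2 fold change. At an unadjusted p under 0.05, 4 of them were lower in CharmeKO, as were 6.87% of all tested genes. These sums without the genes that passed were added after the data were seen. The genes left out were chosen by their difference in these same libraries, so a move towards overlap follows from the choice. An overlap of the remaining sums thus does not show that the other markers were unchanged.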

How the data were processed

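Directional mRNA libraries, selected on poly(A), were made from native CFs of 3 WT and 3 CharmeKO samples. Per the study's methods, the authors filtered reads at Q30, aligned them with STAR, counted reads per gene in the reverse strand setting on an Ensembl release 87 annotation to which *Charme* was added, and per the submitters' processing notes used GRCm39 and DESeq2. The labels also list GRCh38, and the sources used here do not say how the release 87 annotation was matched to GRCm39. The deposited values are raw counts per gene, 1 column per library, and all 6 columns were used. The deposited table keeps 24969 genes at 0 in every library. The methods name hearts of 3 WT and CharmeKO mice, and the sources used here do not state how many animals each library holds.

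Genes reaching 10 counts in 2 libraries or more were tested with edgeR 4.0.16 in R 4.3.3 (TMM, quasi-likelihood F-test, Benjamini-Hochberg over 15789 genes, threshold 0.05), and standard errors were derived from the F statistics. The counts per library, between 9595701 and 42101393, set the precision, and a count of 0 allows up to 3 counts, for counting error only. The procedure was checked on simulated counts. Log2 ratios within a library used counts plus 0.5 and two-sided exact permutation tests in scipy 1.17.1, adjusted over 12 ratios. Levels between genes used merged exon lengths of GENCODE release 21 (GRCm38), joined by gene identifier, since another build is stated for the counts. The coordinates are thus those of GRCm38 and not of the build stated for the alignment. Likeness used log2 CPM with a prior count of 2.

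The members and the gene lists were chosen with earlier results of these data known. Named are all members, from each pathway list the genes past the threshold and the 3 most abundant, from each marker list the 2 most abundant, for each pair the 5 most alike genes, and *Charme*, and beside these the genes next to the pairs, *Slc4a1*, *Plvap*, *Wt1*, *Tnni3* and *Col1a1* and *Col1a2* as a reference, chosen after their values were seen. Alternatives were DESeq2 1.42.0, DESeq2 size factors, upper-quartile normalization, filterByExpr, no gene filter, the replicate number as a block, a term for the *Xist* and Y-linked split, removal of GC and length trends (chosen after the data were seen) and each library left out. Other libraries and assays of the study were not analysed here.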

Additional observations from a re-analysis of the deposited data

How the results depend on the processing

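All 84 alternative fits of the 6 genes gave a negative log2 fold change, and 65 of them stayed on the same side of the threshold of 0.05 as the reported value, while 8 newly passed it and 11 no longer did. *Col4a2* passed the threshold with no gene filter (log2 fold change −0.67) and in DESeq2 (−0.69), *Col4a5* (−0.51) and *Col4a6* (−0.51) with no gene filter, and *Col4a3* no longer passed with a term for the *Xist* and Y-linked split (−0.83) or with the GC and length trend removed (−0.86). The number of the 6 genes called was 5 with no filter, 1 with the split term and 1 after removal of the GC and length trend, and all called genes numbered 394 in DESeq2, of which 60.9% were lower (49.6% in edgeR), and 699 with no filter, of which 63.8% were lower. The cause of these shifts was not tested. Whether the replicate numbers pair the libraries was not settled. Same-numbered deviations correlated at 0.14, 0.0073 and 0.11, and the other combinations at −0.15 to 0.030. Replicates 1 and 3 of WT thus correlated best with their own number in CharmeKO, and WT replicate 2 with CharmeKO replicate 3. With the replicate block, *Col4a2* (−0.72) and *Col4a5* (−0.54) also passed, 4 of the 6 genes and 302 genes in all were called, and 61.9% of the latter were lower. When each library was omitted in turn (leave-one-out), the log2 fold change was −0.79 to −0.37 for *Col4a1*, −1.01 to −0.51 for *Col4a2*, −1.05 to −0.69 for *Col4a3*, −1.29 to −0.87 for *Col4a4*, −0.72 to −0.39 for *Col4a5* and −0.65 to −0.36 for *Col4a6*, with 0 to 3 of them called, none without WT replicate 1, WT replicate 3, CharmeKO replicate 1 or CharmeKO replicate 2, and 61 to 349 genes called in all. The difference in log2 ratio of *Col4a5* to *Col4a6* then ranged from −0.075 to 0.10, that of *Col4a5*/*Col4a6* to *Col4a1*/*Col4a2* from −0.079 to 0.19 and to *Hspg2* from −0.067 to 0.19, that of *Col4a1*/*Col4a2* to *Hspg2* from −0.067 to 0.044 and to the fibrillar genes from −0.093 to 0.14, all crossing 0. That of *Col4a1* to *Col4a2* stayed between 0.12 and 0.21, of *Col4a3* to *Col4a4* between 0.19 and 0.28, of *Col4a3*/*Col4a4* to *Col4a5*/*Col4a6* between −0.60 and −0.30, and of *Col4a3*/*Col4a4* to *Col4a1*/*Col4a2* between −0.52 and −0.24. Depth limits the reading of *Charme*, with at most 26 counts in a library, and no member was near the limit of 3 counts.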
